A study of Homo sapiens with 9 samples.

Results

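A group of 10 nuclear genes whose products transcribe mitochondrial DNA, copy it or decide how long its transcripts last were followed in RNA-seq data from PC-3 cells, an established line of human prostate cancer. They were TFAM, POLRMT, TFB1M, TFB2M, TEFM, LRPPRC, SLIRP, PNPT1, SUPV3L1 and POLG, chosen by symbol for their known roles from 60617 Ensembl identifiers, and all 10 passed the filter on low counts. Earlier results of these data were known when they were chosen. The study asked how PC-3 cells respond when decitabine, an inhibitor of DNA methyltransferases, is given together with S-adenosylmethionine (SAM), the methyl donor of the cell. The 9 libraries were 3 of control cells given vehicle (sulfuric acid and ethanol in PBS, according to the methods), 3 of cells given decitabine alone and 3 of cells given decitabine and SAM, called the combination treatment here. All were taken at day 5, and the labels number the replicates without saying whether they were separate cultures, so p-values measure the spread between these libraries, which may be technical. Cells given SAM without decitabine are not part of the comparisons, so no value here shows what SAM does by itself.

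The circular genome of the mitochondrion is transcribed from both strands into long precursors by a dedicated RNA polymerase, POLRMT, with help from TFAM and TFB2M at the promoters and TEFM along the template. The precursors are cut into ribosomal, transfer and messenger RNAs, the messengers are kept by the LRPPRC and SLIRP pair, and RNA that is no longer needed is degraded by the helicase SUPV3L1 with the exoribonuclease PNPT1. PNPT1 is also known as an interferon-inducible gene, and RNA with paired strands that escapes from mitochondria is one of the signals that cytosolic RNA sensors recognise.

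Depth was even across libraries, with 21934307 to 22489684 estimated counts each. The epithelial markers KRT8, KRT18, EPCAM, CDH1 and CLDN4 summed to 903 to 1011 CPM (counts scaled to a common library total) in controls, 808 to 839 CPM with decitabine and 676 to 757 CPM with the combination treatment, and KLK3, which marks androgen-responsive luminal cells, had no counts. Within this sum the mean of CLDN4 went from 384 CPM in controls to 163 and 148 CPM, and that of KRT8 from 119.7 CPM to 264 and 208 CPM. Leukocyte markers were lowest in controls, where they summed to 0.1986 to 0.3002 CPM. Their sums were 1.649 to 2.24 CPM in decitabine libraries and 1.496 to 1.832 CPM in combination libraries. The endothelial markers PECAM1, VWF and CDH5 had sums of 9.881 to 10.56 CPM in controls. Those sums were 30.96 to 41.73 CPM in decitabine libraries and 36.59 to 43.85 CPM in combination libraries, mostly from PECAM1. The part of either list in the results was not tested. The fibroblast markers COL1A1, COL1A2, DCN and PDGFRB summed to 3.26 to 5.25 CPM in controls, 81.9 to 124 CPM with decitabine and 66.4 to 96.6 CPM with the combination treatment; DCN was at 0 in 2 of the 3 controls, and the part of these markers in the results was not tested. Combination replicate 3 stood apart from the other two combination libraries, since its 20 interferon-stimulated genes summed to 4256 CPM against 1725 and 1946, and its 13 mitochondrial messenger RNAs to 13720 CPM against 23810 and 25350. Several results that rest on it are therefore also given without it.

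With decitabine alone, 6 of the 10 genes fell and 1 rose. TFAM, POLRMT, TFB1M, LRPPRC, SLIRP and SUPV3L1 were lower, PNPT1 was higher, and TFB2M, TEFM and POLG did not pass the test (edgeR's quasi-likelihood test, Benjamini-Hochberg adjusted p under 0.05 over 18532 genes). In bulk RNA, fewer cells that express a gene and less of its RNA per cell cannot be told apart. With the combination treatment 6 genes fell as well, but the membership differed. TFAM, POLRMT, TFB1M, TEFM, LRPPRC and PNPT1 were lower, POLG was higher, and TFB2M, SLIRP and SUPV3L1 did not pass. Between the treatments, SLIRP and POLG were higher and TFB1M and PNPT1 lower in the combination libraries than in the decitabine libraries. TEFM and SUPV3L1, which passed against control under only 1 treatment each, were not called between the treatments.

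These counts have to be read against a transcriptome in which most genes moved. With decitabine 36.3% of all genes tested were called higher and 32.5% lower, with the combination treatment 35.9% and 31.3%, and in the combination against the decitabine libraries 7.67% and 8.02%. The levels of the decitabine and control libraries did not overlap for 8 of the 10 genes, against 72.9% of all genes tested. Combination and control libraries did not overlap for 8 of 10 either, against 71.6% of all genes, and combination and decitabine libraries for 6 of 10, against 34%. The median log2 fold change of the 10 genes was -0.26 with either treatment against control and 0.11 when the treatments were compared, where the medians of all genes tested were 0.03, 0.05 and 0.00.

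The direction of the small changes against control depends on how libraries are scaled. TMM scaling, used throughout unless said otherwise, sets a trimmed mean of the changes near no change. Single genes still moved, with a median absolute log2 fold change over all genes tested of 0.56 with decitabine and 0.55 with the combination treatment. Scaled by library size alone, the median of all genes tested lay at 0.28 with decitabine and at 0.27 with the combination treatment. The 10 genes moved with it, so that their median differed from that of all genes by -0.29 and -0.30 under both scalings (-0.48 and -0.45 with TMM scaling and no filter on low counts). A change of scaling shifts all genes of a comparison nearly alike. The agreement between the scalings was therefore fixed in advance and is no test of this difference. By library size alone fewer of them were called lower against control (3 with decitabine, 1 with the combination treatment). The share of all genes called under that scaling is not available here. Counts of calls by library size alone, here and for the lists below, therefore have no background to be read against.

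**Figure D1:**
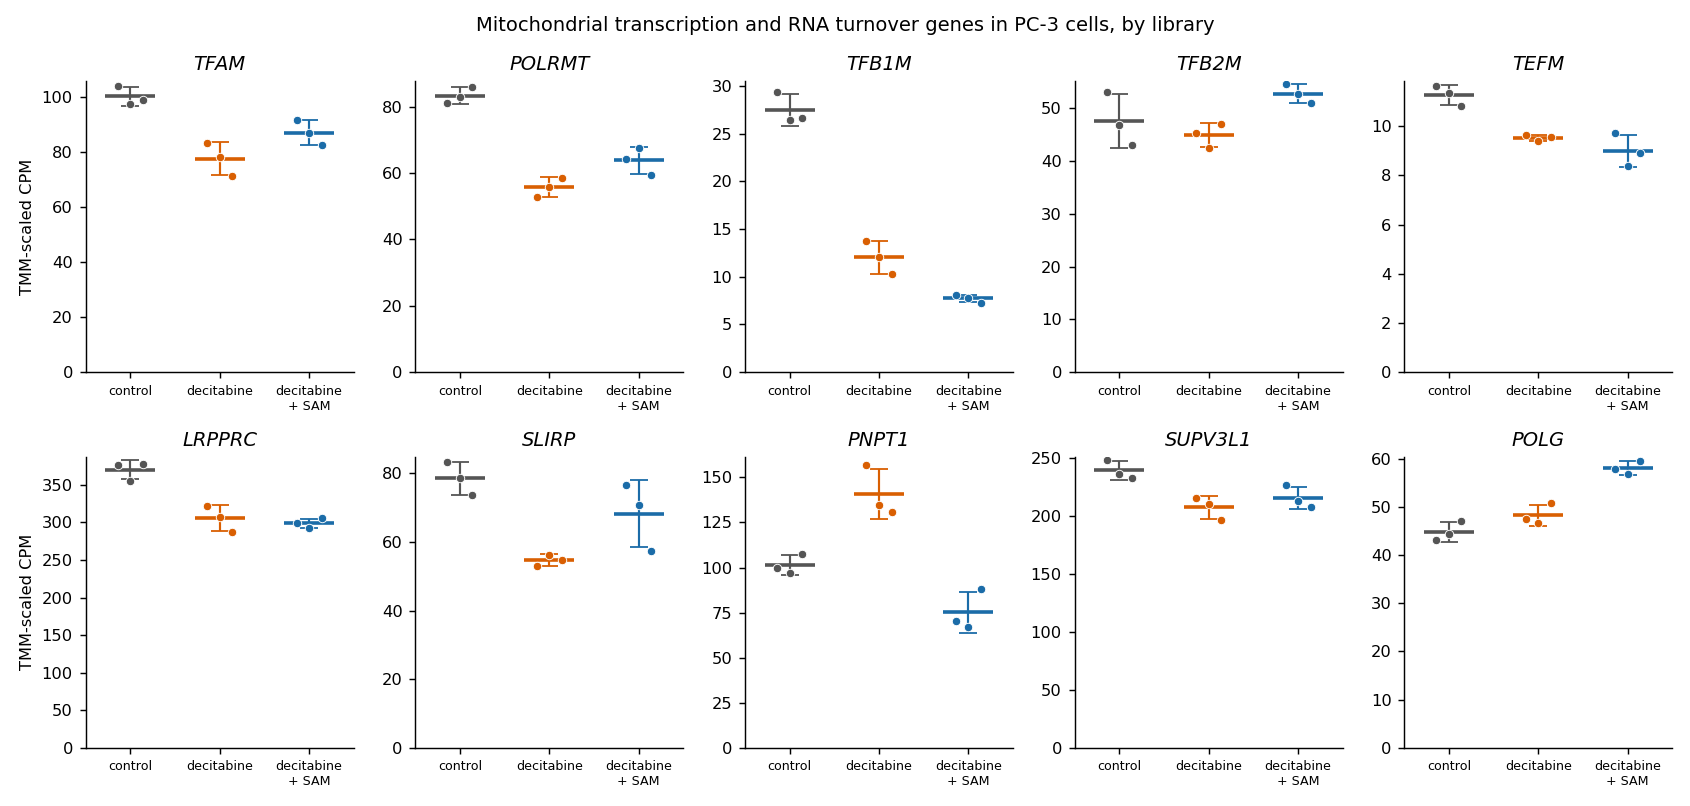
Levels of the 10 genes in each of the 9 libraries, in TMM-scaled CPM on axes that start at 0; points are libraries, thick bars group means and whiskers 1 SD (n = 3 per group). TFB1M falls from 26.4 to 29.4 CPM in controls to 7.28 to 8.10 CPM with the combination treatment, and PNPT1 is highest with decitabine and lowest with the combination treatment.

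Compared per kilobase of the Ensembl canonical transcript, the control levels fell in the order SLIRP, SUPV3L1, LRPPRC, TFB2M, PNPT1, POLRMT, TFAM, POLG, TFB1M and TEFM. SLIRP, whose canonical transcript has only 376 bases, lay at 208.8 CPM per kilobase and TEFM at 8.62, and for so short a transcript this scale depends strongly on the length used. PNPT1 and POLRMT overlapped in the controls (21.3 to 23.6 and 21.5 to 22.8 CPM per kilobase), as did POLG and TFB1M (9.65 to 10.5 and 9.42 to 10.5), while no other neighbours in this order overlapped. With decitabine PNPT1 stood above TFB2M (28.8 to 34.5 against 23.8 to 26.3), and with the combination treatment TFB1M had the lowest level of the 10, at 2.60 to 2.89 CPM per kilobase.

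TFB1M, the methyltransferase that modifies the ribosomal RNA of the small mitochondrial subunit (MT-RNR1), changed most of the 10 against control with either treatment. Its levels were 29.4, 26.4 and 26.7 CPM in the controls, 13.8, 12.02 and 10.3 CPM with decitabine, and 8.10, 7.74 and 7.28 CPM with the combination treatment. The 3 groups did not overlap anywhere. TFB1M fell by 1.19 ± 0.11 (SE) on the log2 scale with decitabine, to 0.438 of the control level (adjusted p = 3.73e-07), and by 1.83 ± 0.12 with the combination treatment, to 0.281 of it (adjusted p = 8.25e-09). It was also lower in the combination than in the decitabine libraries, by a log2 fold change of -0.64 ± 0.12 (adjusted p = 0.00396). All 3 calls held under every scaling, filter and tool tried and without any 1 library. Its annotated position is 155256134 to 155314493 on the minus strand of chromosome 6 (GENCODE release 44, GRCh38). TIAM2 overlaps it on the opposite strand and was lower in each control library (67.0 to 98.2 counts) than in any treated library (100.8 to 136.1). An unnamed long noncoding RNA, ENSG00000235381, overlaps it on its own strand and fell as TFB1M did. Each control library held 43.0 to 53.1 counts of this RNA, each decitabine library 19.9 to 35.3 and each combination library 17.2 to 21.9. A link between these falls was not tested. TFB1M itself had 171 to 592 counts.

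The promoter window of TFB1M is shown because this gene fell most against control and because decitabine lowers the methylation of CG dinucleotides; methylation itself was not analysed here. It runs from 250 bases before to 50 after the start in RefSeq (GRCh38.p14, chr6:155314435-155314734, minus strand, written 5′ to 3′), with each of its 26 CG dinucleotides in capitals.
TFB1M: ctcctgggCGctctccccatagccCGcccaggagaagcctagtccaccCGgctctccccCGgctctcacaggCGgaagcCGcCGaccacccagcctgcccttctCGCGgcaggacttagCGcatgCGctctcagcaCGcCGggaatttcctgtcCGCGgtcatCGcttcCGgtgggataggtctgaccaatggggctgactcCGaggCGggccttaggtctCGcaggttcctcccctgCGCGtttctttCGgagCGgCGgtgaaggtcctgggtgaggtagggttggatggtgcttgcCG

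All 10 genes had an entry among the RefSeq promoters, SLIRP with 2 windows. The 11 windows held 18 to 32 CG dinucleotides with a median of 27, where the median of all 35116 windows was 14 and the quartiles were 4 and 28. TFB1M, with 26, was inside this range, and TFB2M had 31.

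TFB2M, the paralog of TFB1M that opens the promoter together with the polymerase, had 53.1, 46.8 and 43.0 CPM in controls, 45.4, 42.5 and 47.0 CPM with decitabine, and 54.6, 52.7 and 51.0 CPM with the combination treatment. The controls overlapped both treated groups, and all combination libraries lay above all decitabine libraries. No comparison passed the test, with a log2 fold change of -0.08 with decitabine (95% interval -0.26 to 0.10, adjusted p = 0.402), 0.15 with the combination treatment (-0.03 to 0.33, adjusted p = 0.133) and 0.23 in the combination against the decitabine libraries (0.05 to 0.41, adjusted p = 0.0767). With library size as the only scaling the value with decitabine was 0.16 (adjusted p = 0.0964), and that with the combination treatment, 0.37, passed (adjusted p = 0.00139), as it did without control replicate 1 (0.22, adjusted p = 0.0311).

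The ratio of the 2 paralogs within a library needs no scaling between libraries. For TFB1M to TFB2M it was 0.554, 0.564 and 0.620 in controls, 0.303, 0.283 and 0.219 with decitabine, and 0.148, 0.147 and 0.143 with the combination treatment. The 3 groups were apart. The mean log2 ratio differed from control by -1.12 with decitabine and by -1.99 with the combination treatment, and by -0.86 between the treatments. Each gave p = 0.1 by an exact permutation test (two-sided, n = 3 against 3), the smallest p this design allows, and 0.171 after adjustment over the 12 ratio tests made.

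POLRMT, the polymerase itself, was at 81.0, 82.9 and 86.1 CPM in controls, 52.8, 55.8 and 58.7 CPM with decitabine, and 64.4, 67.6 and 59.5 CPM with the combination treatment. Both treated groups lay below all controls, and the combination libraries above the decitabine libraries. POLRMT fell by 0.58 ± 0.07 (SE) on the log2 scale with decitabine (adjusted p = 6.8e-06) and by 0.39 ± 0.07 with the combination treatment (adjusted p = 0.000286). Scaled by library size alone, the value with the combination treatment was -0.17 and did not pass (adjusted p = 0.0534). The difference between the treatments, 0.19 ± 0.07, missed the threshold (adjusted p = 0.0847) but passed without combination replicate 3 (0.24, adjusted p = 0.0322).

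TFAM, which bends the promoter for the polymerase and packs the mitochondrial genome into nucleoids, had 104, 97.7 and 99.1 CPM in controls, 83.3, 78.5 and 71.4 CPM with decitabine, and 91.9, 87.0 and 82.6 CPM with the combination treatment. All treated libraries were below all controls, while the treated groups overlapped. TFAM fell by 0.37 ± 0.07 (SE) on the log2 scale with decitabine (adjusted p = 0.000485) and by 0.20 ± 0.07 with the combination treatment (adjusted p = 0.025). The second call was lost without control replicate 1, combination replicate 2 or combination replicate 3 (adjusted p = 0.071, 0.0616 and 0.0754), and by library size alone the value with the combination treatment turned to 0.02, and the call with decitabine was lost (-0.12, adjusted p = 0.131). Between the treatments TFAM differed by 0.17 ± 0.07 (adjusted p = 0.143).

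The ratio of TFAM to POLRMT was 1.29, 1.18 and 1.15 in controls, 1.58, 1.40 and 1.22 with decitabine, and 1.43, 1.29 and 1.39 with the combination treatment. Decitabine replicate 3 lay among the controls. The mean log2 ratio was 0.21 above control with decitabine (p = 0.2, exact permutation test, n = 3 against 3) and 0.18 above control with the combination treatment (p = 0.1, exact permutation test), with adjusted values of 0.267 and 0.171. The treatments differed by -0.03 in this ratio (exact permutation p = 0.9).

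TEFM, the elongation factor that keeps the polymerase on the template, had the lowest level per kilobase in controls. It was measured at 11.6, 11.4 and 10.8 CPM in controls, 9.64, 9.41 and 9.57 CPM with decitabine, and 9.71, 8.40 and 8.90 CPM with the combination treatment. All treated libraries were below all controls, and the treated groups overlapped. The log2 fold change with decitabine was -0.24 ± 0.11 (SE) and missed the threshold (adjusted p = 0.0586), though it passed with voom and limma (adjusted p = 0.0483) and was 0.01 by library size alone. TEFM fell by 0.32 ± 0.11 with the combination treatment (adjusted p = 0.0155), a call that was lost without combination replicate 2 (-0.28, adjusted p = 0.0677) and by library size alone (-0.10, adjusted p = 0.412). Combination and decitabine libraries differed by -0.08 (95% interval -0.31 to 0.15, adjusted p = 0.638).

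The nuclear respiratory factor NRF1 is a textbook regulator of this machinery, and its core site GCATGCGC was searched on both strands of the promoter windows. It was present in POLRMT, TFB1M and TFB2M and in 3.05% of all 35116 windows. Because its part GCATGC equals its own reverse complement, matches on the 2 strands can overlap, and overlapping matches are joined in the capitals below. The stretches are shown to compare the paralogs TFB1M and TFB2M, of which the first fell and the second did not pass under TMM scaling, with POLRMT; each lies on the minus strand and is written 5′ to 3′ (chr6:155314592-155314631, chr1:246566254-246566291, chr19:633537-633576 and chr19:633647-633684, GRCh38.p14).
TFB1M: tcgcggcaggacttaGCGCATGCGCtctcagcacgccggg
TFB2M: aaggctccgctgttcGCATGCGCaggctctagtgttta
POLRMT, at the start: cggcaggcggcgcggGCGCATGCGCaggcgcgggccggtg
POLRMT, upstream: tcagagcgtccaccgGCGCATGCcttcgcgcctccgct

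The matches began 132 bases before the start in TFB1M, 15 before in TFB2M, and 24 and 132 before in POLRMT. The ETS site CCGGAAGT was found in POLRMT and TEFM and in 4.14% of all windows. The YY1 site AAGATGGCG was found in SLIRP and in 1.75% of all windows. A match describes the letters of the window and says nothing of binding in these cells.

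LRPPRC, an RNA-binding protein of the pentatricopeptide family that holds mitochondrial messengers ready for polyadenylation and translation, had 377, 355 and 378 CPM in controls, 322, 308 and 288 CPM with decitabine, and 299, 293 and 305 CPM with the combination treatment. Treated libraries were all below the controls and the treated groups overlapped. LRPPRC fell by 0.27 ± 0.07 (SE) on the log2 scale with decitabine (adjusted p = 0.00242) and by 0.31 ± 0.07 with the combination treatment (adjusted p = 0.00112). Neither call held when library size was the only scaling (-0.03 and -0.09, adjusted p = 0.709 and 0.265). Combination and decitabine libraries differed by -0.03 (95% interval -0.18 to 0.11, adjusted p = 0.784).

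SLIRP, the small partner that stabilises LRPPRC and binds the same messengers, had 83.3, 78.6 and 73.7 CPM in controls, 52.9, 56.3 and 54.8 CPM with decitabine, and 76.6, 70.7 and 57.5 CPM with the combination treatment. Combination replicates 1 and 2 lay close to the controls, and replicate 3 close to the decitabine libraries. SLIRP fell by 0.52 ± 0.09 (SE) on the log2 scale with decitabine (adjusted p = 0.000202). The combination treatment gave -0.20 ± 0.09 against control (adjusted p = 0.0716), -0.09 without combination replicate 3 (adjusted p = 0.304) and 0.02 by library size alone. It passed as lower without combination replicate 1 (-0.30, adjusted p = 0.0108), with no filter on low counts (-0.23, adjusted p = 0.0202) and with the replicate number as a block (-0.21, adjusted p = 0.0393). SLIRP was higher in the combination than in the decitabine libraries by 0.32 ± 0.09 (adjusted p = 0.035), and by 0.43 without combination replicate 3 (adjusted p = 0.00158). This call was lost in the fit on the 6 libraries compared (adjusted p = 0.0661) and when control replicate 2, any 1 decitabine library, or combination replicate 1 or 2 was left out (adjusted p of 0.0562 to 0.151), with log2 fold changes of 0.23 to 0.34. SNW1 overlaps SLIRP on the opposite strand with 2128 to 2626 counts per library, and reads of the 2 genes can be told apart only as far as the transcript assignment did so.

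The ratio of LRPPRC to SLIRP was 4.53, 4.52 and 5.13 in controls, 6.09, 5.46 and 5.25 with decitabine, and 3.90, 4.14 and 5.32 with the combination treatment. All decitabine libraries were above all controls, and combination replicate 3 reached into the decitabine range. The mean log2 ratio was 0.24 above control with decitabine (p = 0.1, exact permutation test, n = 3 against 3, adjusted 0.171). It was 0.10 below control with the combination treatment (exact permutation p = 0.6). Between the treatments it was lower by 0.34 in the combination libraries (exact permutation p = 0.2). Without combination replicate 3 the combination treatment gave -0.23 against control and -0.48 against decitabine.

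PNPT1, the exoribonuclease of the mitochondrial degradosome, was the only one of the 10 genes called in opposite directions by the treatments. It had 99.6, 96.8 and 107 CPM in controls, 157, 134 and 131 CPM with decitabine, and 70.2, 67.3 and 88.3 CPM with the combination treatment. The 3 groups did not overlap. PNPT1 rose by 0.48 ± 0.10 (SE) on the log2 scale with decitabine, to 1.39 times the control level (adjusted p = 0.000801), and fell by 0.43 ± 0.10 with the combination treatment, to 0.744 of it (adjusted p = 0.002). The combination libraries were below the decitabine libraries by a log2 fold change of -0.90 ± 0.10 (adjusted p = 0.000324), a size larger than that of 95.6% of all genes tested in this comparison. The fall against control was -0.56 without combination replicate 3 (adjusted p = 6.7e-05), and by library size alone it was -0.20 and did not pass (adjusted p = 0.113). The rise with decitabine and the difference between the treatments held under all scalings, filters and tools and without any 1 library.

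SUPV3L1, the helicase that unwinds RNA for PNPT1, moved far less. It had 248, 236 and 233 CPM in controls, 215, 210 and 196 CPM with decitabine, and 226, 213 and 207 CPM with the combination treatment. All treated libraries were below all controls. SUPV3L1 fell by 0.21 ± 0.07 (SE) on the log2 scale with decitabine (adjusted p = 0.0152), a call that was lost without decitabine replicate 3 (-0.17, adjusted p = 0.0537) and turned to 0.04 by library size alone (adjusted p = 0.587). The combination treatment gave -0.15 ± 0.07 against control (adjusted p = 0.0648; 0.07 by library size alone) and 0.06 ± 0.07 against decitabine (adjusted p = 0.621). Against control it passed as lower without combination replicate 1 (-0.20, adjusted p = 0.0271) and with the replicate number as a block (-0.15, adjusted p = 0.0451).

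The ratio of PNPT1 to SUPV3L1, the 2 subunits of the degradosome, was 0.401, 0.410 and 0.462 in controls, 0.728, 0.641 and 0.667 with decitabine, and 0.310, 0.317 and 0.426 with the combination treatment. All decitabine libraries were above all others, and combination replicate 3 lay within the controls. The mean log2 ratio was 0.68 above control with decitabine and lower by 0.96 in the combination than in the decitabine libraries, each with p = 0.1 by an exact permutation test (n = 3 against 3, adjusted 0.171). Against control the combination treatment gave -0.29 (exact permutation p = 0.3), and -0.43 without combination replicate 3.

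**Figure D2:**
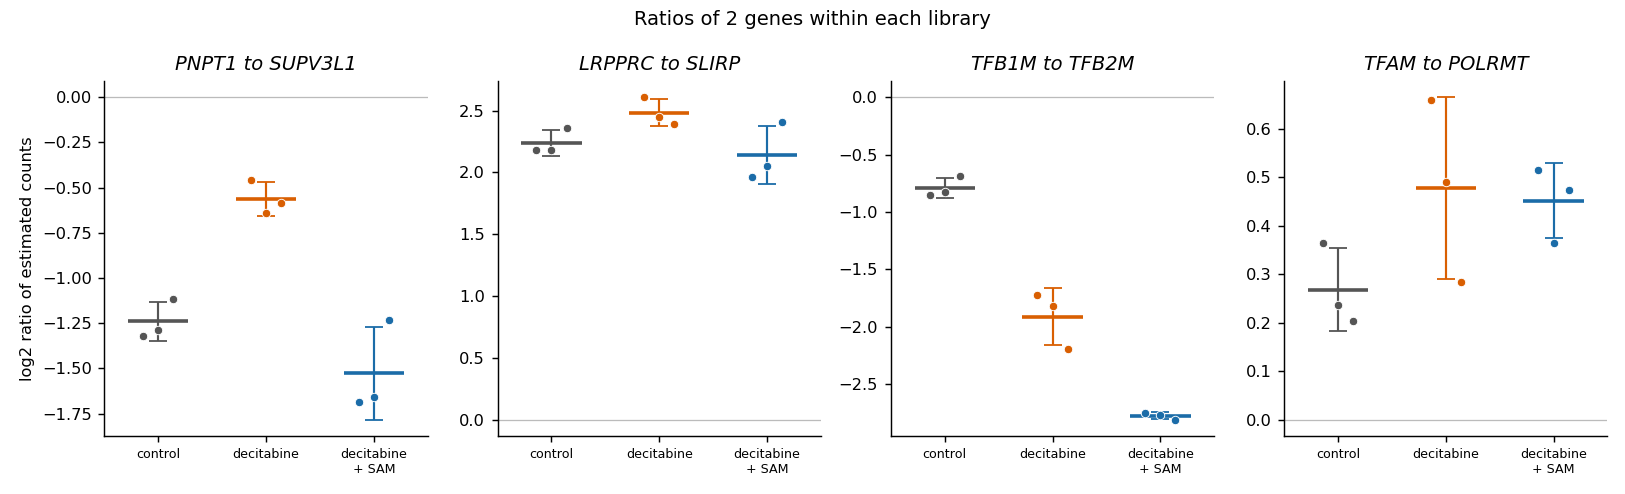
Ratios of pairs of genes within each library, on a log2 scale that needs no scaling between libraries; points are libraries, thick bars group means and whiskers 1 SD (n = 3 per group). TFB1M to TFB2M falls stepwise from the controls to the combination treatment, with the 3 groups apart, and PNPT1 to SUPV3L1 is highest in the 3 decitabine libraries.

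The promoter window of PNPT1 (RefSeq, GRCh38.p14, chr2:55693795-55694094, minus strand, 5′ to 3′) is printed for comparison with that of TFB1M, since this gene rose with decitabine. Its 22 CG dinucleotides are in capitals.
PNPT1: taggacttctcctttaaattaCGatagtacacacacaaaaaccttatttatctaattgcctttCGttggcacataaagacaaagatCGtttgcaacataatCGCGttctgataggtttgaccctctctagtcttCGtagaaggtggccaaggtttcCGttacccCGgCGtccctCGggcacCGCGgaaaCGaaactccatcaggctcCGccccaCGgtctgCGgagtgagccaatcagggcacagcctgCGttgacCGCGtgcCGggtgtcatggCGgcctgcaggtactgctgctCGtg

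The core of the interferon-stimulated response element, searched as GAAANNGAA on both strands, was not in this window. Among the 10 genes it was in SUPV3L1 alone, and it was in 8.11% of all windows. A closer-spaced pair of the same letters, GAAANGAAA, was searched after the PNPT1 window had been read, and it began 65 bases before the start of PNPT1 on its own strand. LRPPRC held it too, as did 3.12% of all windows.

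Levels of PNPT1 stand beside those of 20 interferon-stimulated genes (IFIT1, MX1, OAS1, IFIH1 and others) as follows. The list was chosen with earlier results of these data known, which limits what its counts of calls can show. The 20 genes summed to 795 to 940 CPM in controls, 8565 to 10560 CPM with decitabine and 1725 to 4256 CPM with the combination treatment. With decitabine all 20 were called higher and their median log2 fold change was 3.79, and PNPT1 was called higher at 0.48. With the combination treatment 16 of the 20 were still higher than in controls and none lower, with a median of 1.94, and PNPT1 was lower than in controls. All 20 were lower in the combination than in the decitabine libraries, with a median of -1.99, as was PNPT1. That count of 20 was the same without combination replicate 3 but fell to 3 without decitabine replicate 1 or 2 or combination replicate 2, to 5 without combination replicate 1, and to 12 and 13 without decitabine replicate 3 and control replicate 2, whereas the call on PNPT1 held in each of these fits. Combination replicate 3 was the highest of its group in both measures.

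The 13 messenger RNAs encoded in mitochondria, the products of this machinery, summed to 37000 to 46080 CPM in controls, 7492 to 11500 CPM with decitabine and 13720 to 25350 CPM with the combination treatment. All 13 fell with decitabine, by a median log2 fold change of -2.61, and 11 of 13 fell with the combination treatment, where the median was -1.02. The other two, MT-ND1 and MT-ND2, gave -0.08 and -0.61 there (adjusted p = 0.788 and 0.0722). Between the treatments 12 of the 13 were higher in the combination libraries, by a median of 1.36, and MT-CO1 gave 0.88 (adjusted p = 0.0563). Counted over all 15 mitochondrially encoded transcripts, ribosomal RNAs included, the calls higher between the treatments dropped from 12 to 3 without decitabine replicate 2, to 4 without combination replicate 1 and to 6 without decitabine replicate 3. Calls lower with the combination treatment than in controls dropped from 11 to 7 without control replicate 2 or 3.

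The 2 mitochondrial ribosomal RNAs went the other way. How the RNA was selected before sequencing is not given in the sources used here, and the extraction text of the labels describes genomic DNA, so whether these levels reflect whole or only polyadenylated ribosomal and messenger RNA is not known. MT-RNR1, of the small ribosomal subunit and the substrate of TFB1M, had 514, 557 and 578 CPM in controls, 1529, 1532 and 1348 CPM with decitabine, and 902, 1103 and 1229 CPM with the combination treatment. MT-RNR1 rose by 1.42 ± 0.10 (SE) on the log2 scale with decitabine (adjusted p = 3.68e-08) and by 0.97 ± 0.10 with the combination treatment (adjusted p = 1.4e-06), and it was lower in the combination than in the decitabine libraries (-0.45 ± 0.10, adjusted p = 0.0111). MT-RNR2, of the large subunit, rose by 0.35 ± 0.14 with decitabine (adjusted p = 0.0344) and by 0.72 ± 0.14 with the combination treatment (adjusted p = 0.00046). Only 1 of these 2 calls with decitabine remained when control replicate 1 or 2, decitabine replicate 1 or 2, or combination replicate 1 was left out. Against control, TFB1M was lower and MT-RNR1 higher with either treatment. TFB1M was lowest with the combination treatment, while the RNA it modifies was highest with decitabine alone. A link between the levels of TFB1M and MT-RNR1 was not tested.

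**Figure D3:**
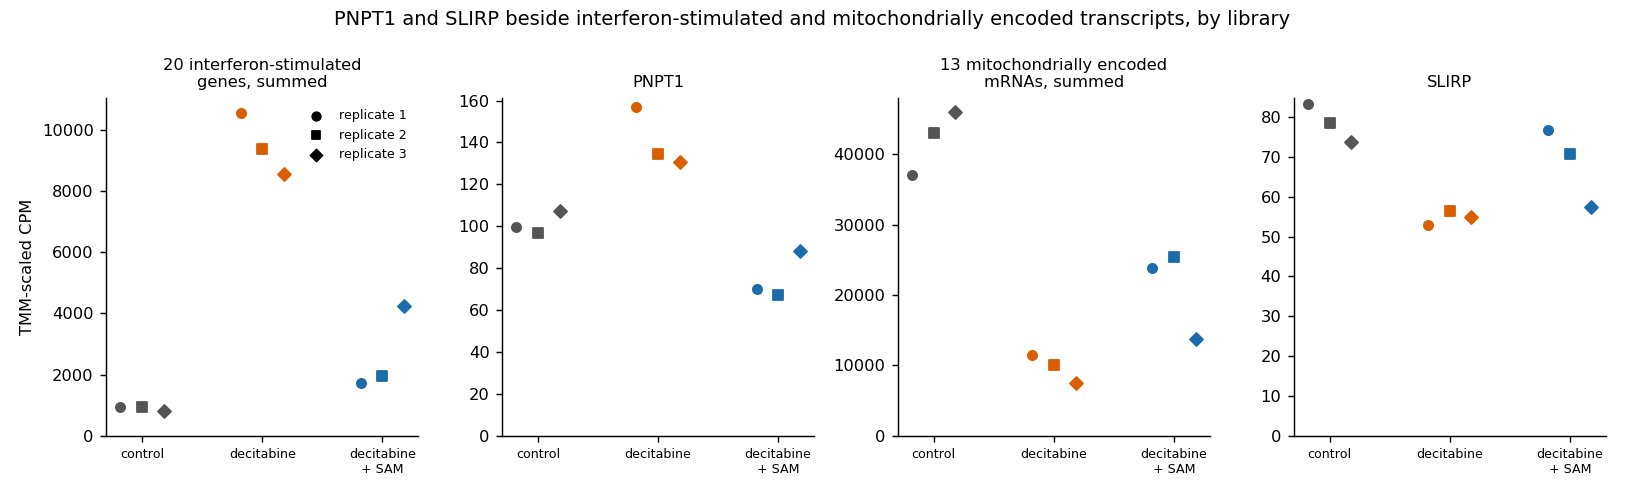
Summed levels of 20 interferon-stimulated genes, level of PNPT1, summed levels of the 13 mitochondrially encoded messenger RNAs and level of SLIRP in each library, in TMM-scaled CPM on axes that start at 0; symbols give the replicate number. Combination replicate 3 (blue diamond) is nearer to the decitabine libraries than the other combination libraries in all 4 panels, with 4256 CPM in the first, 88.3 in the second, 13720 in the third and 57.5 in the fourth.

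POLG, the catalytic subunit of the DNA polymerase that copies the mitochondrial genome, was the only one of the 10 called higher with the combination treatment. It had 43.0, 44.3 and 47.0 CPM in controls, 47.4, 46.6 and 50.7 CPM with decitabine, and 57.8, 56.7 and 59.5 CPM with the combination treatment. The combination libraries were above all others, and decitabine and control libraries overlapped. POLG rose by 0.37 ± 0.07 (SE) on the log2 scale with the combination treatment (adjusted p = 0.00032), a call that every alternative kept. The value with decitabine was 0.11 ± 0.07 (95% interval -0.05 to 0.26, adjusted p = 0.197), and by library size alone it was 0.35 and passed (adjusted p = 0.000793). POLG was higher in the combination than in the decitabine libraries by 0.27 ± 0.07 (adjusted p = 0.022), but not without decitabine replicate 1 or 2 or combination replicate 1 or 2 (adjusted p of 0.0594 to 0.107). FANCI overlaps POLG on the opposite strand and had 1035 to 2064 counts per library, highest in the controls.

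**Figure D4:**
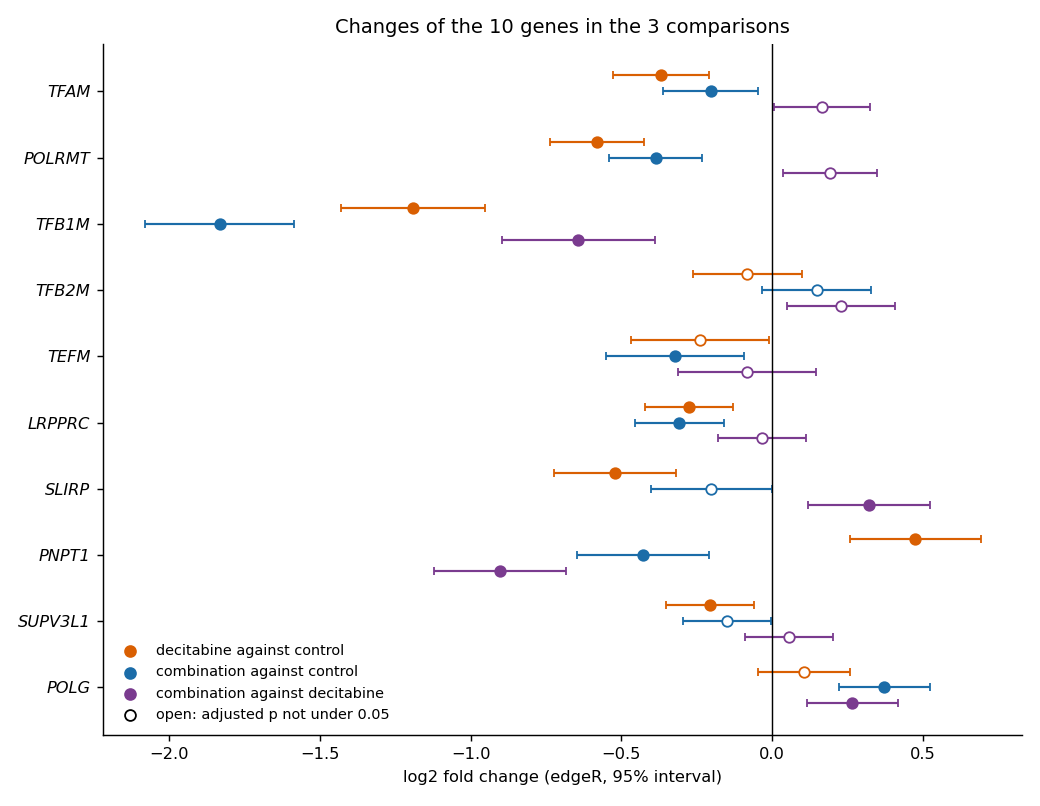
Log2 fold changes of the 10 genes in the 3 comparisons (edgeR, TMM scaling) with their 95% intervals; filled points passed an adjusted p of 0.05 and open points did not. TFB1M is below 0 in all 3 comparisons, PNPT1 is above 0 with decitabine and below 0 in the other two, and the intervals of the other genes lie between -0.74 and 0.53. By library size alone the points of TFB2M, TEFM and SUPV3L1 with decitabine and of TFAM, SLIRP and SUPV3L1 with the combination treatment lie above 0.

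The genes most like TFB1M over the 9 libraries, by the Pearson correlation of log2 CPM over all genes tested, were BTBD9, PTK2, CTDSP1, GSTK1 and SPICE1, with r between 0.995 and 0.996. PTK2 encodes focal adhesion kinase. For PNPT1, looked up after its values had been seen, they were LAP3, VPS8, RABL2A, RNF31 and TEP1, with r between 0.968 and 0.982. Among the 10 genes themselves, TFAM and SUPV3L1 had r = 0.97 and TFB1M and LRPPRC r = 0.94, whereas TFB1M and POLG had r = -0.90 and TFB2M and PNPT1 r = -0.77. These values describe 3 groups of 3 libraries that share their treatment and depth, and the highest values among many genes are high by selection.

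Other genes of mitochondrial nucleic acid metabolism were taken from 4 lists of related genes, chosen with earlier results of these data known. The counts of each list stand against the shares of all genes tested. Those were 36.3% higher and 32.5% lower with decitabine, and 35.9% and 31.3% with the combination treatment. Between the treatments they were 7.67% and 8.02%. Of 15 further genes for replication and upkeep of mitochondrial DNA, 10 fell and none rose with decitabine, 7 fell and none rose with the combination treatment, and 2 were higher and none lower between the treatments. LONP1, the matrix protease that degrades TFAM among other proteins, fell by 1.64 ± 0.08 (SE) on the log2 scale with decitabine and by 1.44 ± 0.08 with the combination treatment. TOP1MT, the mitochondrial topoisomerase, fell by 1.26 and 0.95, DNA2, a nuclease and helicase, by 1.14 with decitabine, and PRIMPOL, a primase and polymerase, by 1.13 with the combination treatment. DNA2 and TOP1MT were the 2 genes higher in the combination than in the decitabine libraries (0.54 and 0.31; TOP1MT was named here after its values were seen). The median log2 fold change of the list was -0.34, -0.21 and 0.13 in the 3 comparisons. With library size alone 7 were lower and 4 higher against control with either treatment.

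Of 32 genes for mitochondrial RNA processing, modification and turnover, 22 fell and 1 rose with decitabine, and 20 fell and 1 rose with the combination treatment, with medians of -0.48 and -0.45. The most lowered were FASTKD2 (-1.17 and -1.25), which helps to assemble the large mitochondrial ribosomal subunit, PTCD1 (-1.06 and -1.17), a pentatricopeptide protein, HSD17B10 (-0.97 with decitabine), a subunit of mitochondrial RNase P, and FASTK (-1.02 with the combination treatment), a binder of mitochondrial messenger RNA. The gene that rose in both was PDE12 (0.48 and 0.38), which removes poly(A) from mitochondrial RNA; it was named after its values were seen. Between the treatments TRMU, which thiolates transfer RNAs, was higher by 0.32 (adjusted p = 0.0418) and TRNT1, which adds the CCA end to transfer RNAs, was lower by 0.56 (adjusted p = 0.0111), and the other 30 did not pass. By library size alone 16 were lower in both comparisons with control, and 7 and 8 higher.

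Among 11 nuclear regulators of mitochondrial biogenesis, 6 fell with decitabine and none rose, and with the combination treatment 5 fell and 1 rose. Of all genes tested, 32.5% and 31.3% were called lower in these comparisons. MYC fell by 0.85 ± 0.09 (SE) on the log2 scale with decitabine and by 0.72 ± 0.09 with the combination treatment, SP1 by 0.40 and 0.51, NRF1 by 0.36 with decitabine and CREB1 by 0.41 with the combination treatment. The gene that rose was the coactivator PPARGC1A (1.27 ± 0.51, adjusted p = 0.0385), named after its values were seen, at only 0.149 to 1.14 CPM in all libraries and with overlapping groups; no gene of the list was higher without control replicate 3 or combination replicate 2 or 3, and 2 were without decitabine replicate 1 or 3. Between the treatments only ESRRA, a nuclear receptor, was called, higher by 0.30 (adjusted p = 0.0357). By library size alone 1 was lower and 2 higher with decitabine, and 2 lower and 4 higher with the combination treatment.

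The cytosolic and nuclear RNA exosome, which degrades RNA outside mitochondria and includes subunits related to PNPT1, was set beside the mitochondrial degradosome. Of its 13 genes and cofactors, 9 fell and 2 rose with decitabine, 8 fell and 2 rose with the combination treatment, and 3 were higher and 1 lower in the combination than in the decitabine libraries. EXOSC10 fell by 1.10 and 1.17 on the log2 scale, EXOSC8 by 1.08 and 0.98, and EXOSC5 by 0.82 with decitabine, while EXOSC4 rose by 0.62 with the combination treatment. Between the treatments EXOSC5, EXOSC4 and EXOSC7 were higher by 0.40, 0.33 and 0.30. The other genes behind these counts, named after their values were seen, were EXOSC4 and SKIC2, higher with decitabine (0.29 and 0.26), DIS3, higher with the combination treatment (0.24), and SKIC2, lower between the treatments (-0.21). Scaled by library size, 7 fell and 3 rose with decitabine, and 4 fell and 4 rose with the combination treatment.

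**Figure D5:**
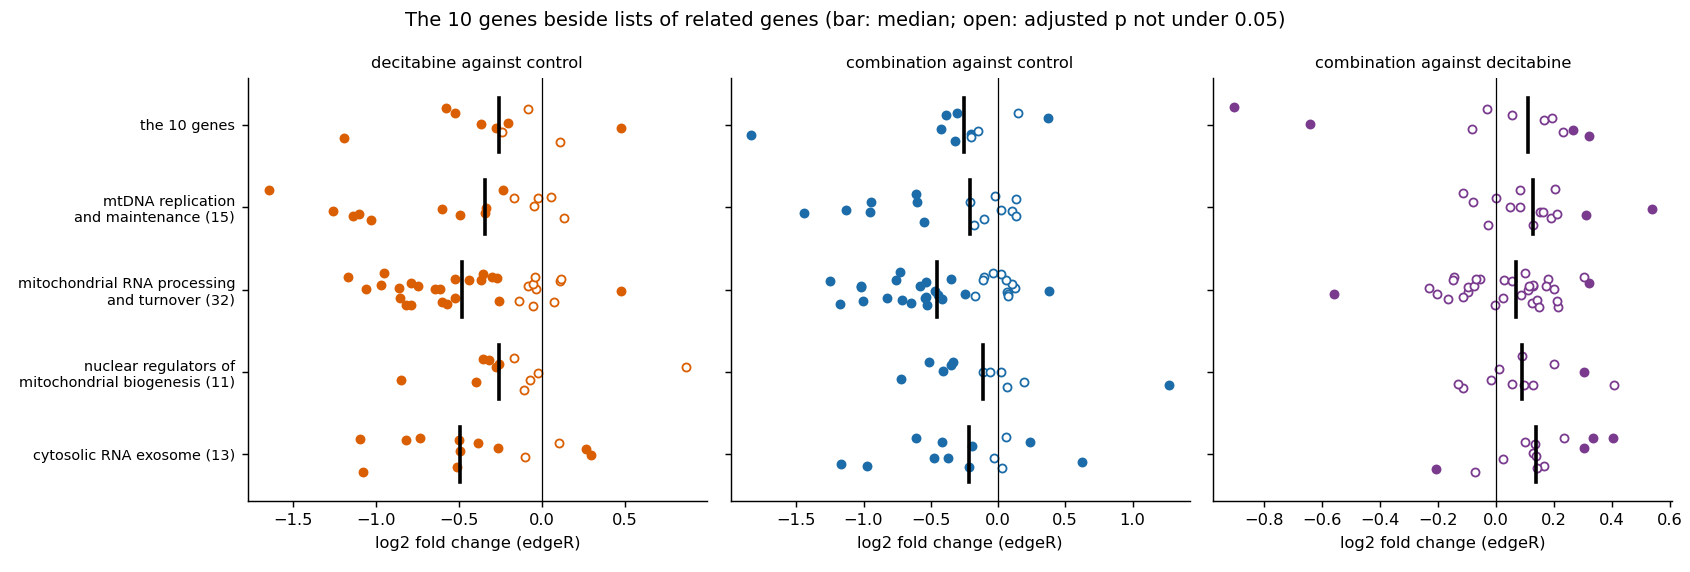
Log2 fold changes (edgeR, TMM scaling) of the 10 genes and of 4 lists of related genes in the 3 comparisons; each point is a gene, filled where its adjusted p was under 0.05, and black bars are list medians. Against control the medians of all 5 rows lie below 0, at -0.26 for the 10 genes with either treatment and at -0.48 and -0.45 for mitochondrial RNA processing and turnover; scaled by library size alone, all genes shift up by 0.25 with decitabine and 0.22 with the combination treatment.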

How the data were processed

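RNA-seq libraries of PC-3 cells (3 control, 3 decitabine, 3 combination, day 5) were used, grouped by their treatment labels. According to the methods, the authors checked reads with FastQC, trimmed them with TrimGalore and quantified them with kallisto against GRCh38. The deposited estimated counts per Ensembl gene carry decimals, are not normalized, and whether the quantification used strand is not given in the sources used here. The log2 CPM values the authors also deposited were not used. The submitters' processing notes name Trim Galore 0.6.4 and kallisto 0.4.6, and 60357 of 60617 identifiers are in GENCODE release 44.

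Counts were rounded and tested in edgeR 4.0.16 (R 4.3.3) with filterByExpr, TMM scaling, robust dispersions and the quasi-likelihood test. All 9 libraries entered 1 fit with a mean for each group, with Benjamini-Hochberg adjustment over all genes tested at 0.05. Levels are TMM-scaled CPM. Log2 ratios of gene pairs in a library were compared with exact two-sided permutation tests. The alternatives were library size alone, DESeq2's size factors, DESeq2 1.42.0, voom with limma 3.58.1, all genes with a count, genes averaging 10 counts or more, the 6 libraries of a comparison only, a replicate block, and each library left out. The fit was tested on simulated data in which few genes changed, with rises and falls drawn evenly. Most genes were called against control in the real libraries, so the simulation did not test the scaling under that condition. Within each group no library was a copy of another (chi-square per degree of freedom 5.86 to 23.5). Pairs from different groups were not examined in this way. The members, lists and motifs were chosen with earlier results of these data known. All members were named, and of each list at most the 3 genes with the largest changes among those past the threshold whose groups did not overlap, unless stated. Pseudogene copies of TFAM, PNPT1 and SLIRP had at most 1 count in any library.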

Additional observations from a re-analysis of the deposited data

How the results depend on the processing

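Scaling by library size alone moved the results most. Under it 2 of the 10 genes were called higher and 3 lower with decitabine (median log2 fold change -0.011), and 2 higher and 1 lower with the combination treatment (median -0.034), since that scaling shifts all genes upward. It turned TFB2M (0.16), TEFM (0.0068) and SUPV3L1 (0.040) with decitabine, and TFAM (0.017), SLIRP (0.018) and SUPV3L1 (0.071) with the combination treatment. In the fit on the 6 libraries compared, 1 gene in place of 2 was higher between the treatments. Leaving out each library in turn gave 0 to 3 genes higher in the combination than in the decitabine libraries (0 without decitabine replicate 1 or 2 or combination replicate 1 or 2, and 3 without combination replicate 3), 1 to 2 genes higher with the combination treatment than in controls (2 without control replicate 1), and a median of the latter comparison of -0.31 to -0.24. LRPPRC between the treatments ranged from -0.075 to 0.0079 (above 0 without decitabine replicate 1), and the log2 ratio of TFAM to POLRMT there from -0.12 to 0.064, with 0.017 without combination replicate 2; the cause was not tested.

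The correlation of the deviations of same-numbered libraries was -0.03 to 0.29 and passed 0.1 in 3 of 9 pairs, with 0.294 and 0.292 for replicates 1 and 3 of decitabine and combination, so the numbers were not taken to pair all samples. Without 1 library, genes higher between the treatments numbered 1 to 4 in the replication list and 0 to 3 in the RNA processing list, each with the most without combination replicate 3. With a replicate block 8 genes in place of 6 were lower with the combination treatment, SLIRP (-0.21, adjusted p = 0.0393) and SUPV3L1 (-0.15, adjusted p = 0.0451) being added, and no other call on the 10 genes changed. Of the refits of a single gene in a comparison, 471 kept direction and side of the threshold, 22 lost a call in the same direction, 10 gained one and 7 turned, of which TFAM with the combination treatment and SUPV3L1 with decitabine, both by library size alone, also lost a call. With 3 libraries a group, the exact permutation tests of ratios cannot go below p = 0.1, or 0.2 with 1 library left out, and TEFM rests on 191 to 234 counts per library.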
